A study of Mus musculus with 6 samples.

Results

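The Siglec receptors are a family of sialic-acid-binding, immunoglobulin-like lectins on immune cells, and 7 of their genes (Siglec1, Siglece, Siglecf, Siglecg, Siglech, Cd22 and Cd33) were followed here among the 32285 genes counted. Members were found in the files by gene symbol. Single-cell RNA of 6 mice was measured, with 1 library for each treatment. The study's methods describe C57BL/6 female mice, 6 to 8 weeks old, that received KPCA cells in the ovarian bursa. KPCA is a mouse ovarian cancer line proficient in homologous recombination. The control mouse received solvent and rat IgG. The 2DG mouse received 2-deoxy-D-glucose, a glucose analog that lowers branched N-glycans, once tumours were palpable (day 9). The 2FF mouse received 2FF, a fucose analog that blocks fucosylation, after tumour implantation. Its tumour cells were also kept in 2FF for 3 days before injection. The labels name 2FF as 2F-Peracetyl-Fucose, whereas the study names it as 2-fluoro-L-fucose. Another mouse received anti-PD-L1 alone (5 mg/kg, 2 injections a week for 3 weeks after day 9). The last mice received that antibody together with an inhibitor and are named 2DG plus anti-PD-L1 or 2FF plus anti-PD-L1. All mice were killed on day 30. The control and anti-PD-L1 mice served both inhibitors, and no treatment was repeated in a further mouse. The labels give lymph node as the tissue, whereas the study's methods describe dissociated ovarian tumours. The design text of the deposit speaks of both young and aged mice, and the labels give no age that would place these libraries. The cells are described below by their genes, with no tissue assumed.

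Siglecs read sialic acid caps on glycoproteins and glycolipids. Most carry inhibitory tyrosine motifs that recruit the phosphatases encoded by Ptpn6 and Ptpn11, so that sialylated ligands dampen the cell. Siglech instead signals through the adaptor encoded by Tyrobp, and Siglec1 is an adhesion receptor without such motifs. Mouse Cd33 lacks part of the inhibitory tail of its human counterpart, and its protein is known from myeloid cells, in particular granulocytes.

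Of the members, 4 lie in the Siglec gene cluster of chromosome 7 (GRCm38, GENCODE). Siglecf lies at chr7:43351341-43359531 and Siglecg at chr7:43408204-43418358 on the plus strand. Cd33 lies at chr7:43524216-43544428 and Siglece at chr7:43651070-43660161 on the minus strand, and the 4 genes span 309 kb. Siglech lies at chr7:55768178-55778925 on the plus strand, Cd22 at chr7:30865402-30880342 on the minus strand, and Siglec1 at chr2:131069220-131086765 on the minus strand. Cd22 is overlapped on the opposite strand by Gm29439, an antisense gene that was counted as a separate row.

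RefSeq promoter windows (GRCm38.p6) matched 6 of the 7 members. The RNA of Siglecf, Cd33 and Siglece was highest in the same class of cells, but the Siglece window aligned with scores of only 21 to Siglecf and 20 to Cd33. Of all pairs of these windows, Siglecf and Cd33 aligned best, with an alignment score of 68 against 22 for the next pair. They are shown for that reason, 5′ to 3′ on the strand of each gene, from 250 bases before to 50 after the annotated start, with the aligned stretch in capitals. The Siglecf window is chr7:43351091-43351390 on the plus strand and the Cd33 window chr7:43533122-43533421 on the minus strand.
Siglecf: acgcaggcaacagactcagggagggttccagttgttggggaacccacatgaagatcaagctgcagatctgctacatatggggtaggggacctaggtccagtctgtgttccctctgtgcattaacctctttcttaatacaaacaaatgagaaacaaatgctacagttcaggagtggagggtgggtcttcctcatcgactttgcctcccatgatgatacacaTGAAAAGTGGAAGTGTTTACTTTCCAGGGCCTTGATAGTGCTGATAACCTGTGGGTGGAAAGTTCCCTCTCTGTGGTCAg
Cd33: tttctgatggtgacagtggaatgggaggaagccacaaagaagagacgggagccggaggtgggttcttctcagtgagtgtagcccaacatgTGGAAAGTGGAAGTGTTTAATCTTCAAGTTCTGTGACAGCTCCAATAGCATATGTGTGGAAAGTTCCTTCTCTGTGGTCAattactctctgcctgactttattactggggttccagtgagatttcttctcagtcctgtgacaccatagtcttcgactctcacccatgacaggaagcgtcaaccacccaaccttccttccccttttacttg
The aligned stretches were identical at 62 of 80 positions (77.5%) and shared a run of 16 bases, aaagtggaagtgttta. In Siglecf the stretch lay from -30 to 49 relative to the start, and in Cd33 from -160 to -80, with the RefSeq start of Cd33 inside the longer gene span given above. Among motifs searched on both strands, TGTGGT occurred in the windows of Siglecf, Cd33 and Siglech, that is in 3 of 6, against 16.8% of 32851 promoter windows. In Siglecf and Cd33 it lay inside the aligned stretch, so these are not independent occurrences. TTCNNNGAA occurred in 1 of 6 (Siglech) against 8.30%, and GGAA in 6 of 6 against 96.0%. GAGGAAGT occurred in 0 of 6 against 3.20%, and GAAA repeated after a gap of 2 bases in 0 of 6 against 3.44%. These are matches of letters, with GGAA lying inside GAGGAAGT.

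The 6 libraries held 57078 cell barcodes, of which 51633 passed limits of at least 250 genes and at most 5% mitochondrial UMIs, with 61859753 to 73885214 UMIs and medians of 6196 to 7732 UMIs per kept cell in each library. Cells were sorted into 11 classes by markers that include no Siglec gene, and are called "-like" since the markers alone define them. The dendritic classes are conventional dendritic cells (cDC1 and cDC2), mature dendritic cells (mature DC) and plasmacytoid dendritic cells (pDC). A class's own markers were highest in that class for 6 of 6 B, 7 of 7 neutrophil, 6 of 7 macrophage, 4 of 7 monocyte, 4 of 5 cDC2 and 7 of 8 pDC markers. By this count monocyte-like cells were the least sharply set apart. Of the pDC-like cells, 24.6% lay near the limit of the class, against 10.3% of cDC2-like, 9.71% of macrophage-like and 8.52% of monocyte-like cells. The pDC cluster (cluster 17) held only 165 cells, 93.3% of them pDC-like, so the class of 252 pDC-like cells reached beyond it and is mixed. Neutrophil-like cells stood apart by library, with 3137 in control (34.6% of its cells) and 276 to 504 in each treated library. Most control neutrophil-like cells lay in another expression cluster (cluster 3, 66.4%) than most of those of each treated library (cluster 5, 54.3 to 76.2%). Monocyte-like cells also differed in their leading clusters, which were 10 and 8 in control and 13, 9 and 11 in treated libraries. Of the barcodes, 389 occurred in 2 or more libraries, with 16 to 34 for each pair of libraries. No kept cell met the marker gate for eosinophils, although single eosinophil markers were detected. These were Il5ra in 381 cells, Ccr3 in 288, Prg2 in 84, Ear1 in 37, Prg3 in 10 and Epx in 3.

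Within these cells, each Siglec had a class where its RNA was highest. In all, 16487 UMIs were counted for Cd33, 5398 for Siglece, 3380 for Cd22, 3046 for Siglecg, 2471 for Siglech, 2207 for Siglec1 and 391 for Siglecf. Levels are given as a gene's UMIs per 1000000 UMIs of a class (CPM), summed within a library. They are compared for a gene across classes and libraries, not between genes. Where 6 values stand in a row, control comes first, then the single agents 2DG, 2FF and anti-PD-L1, then the combination with 2DG and that with 2FF.

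**Figure D1:**
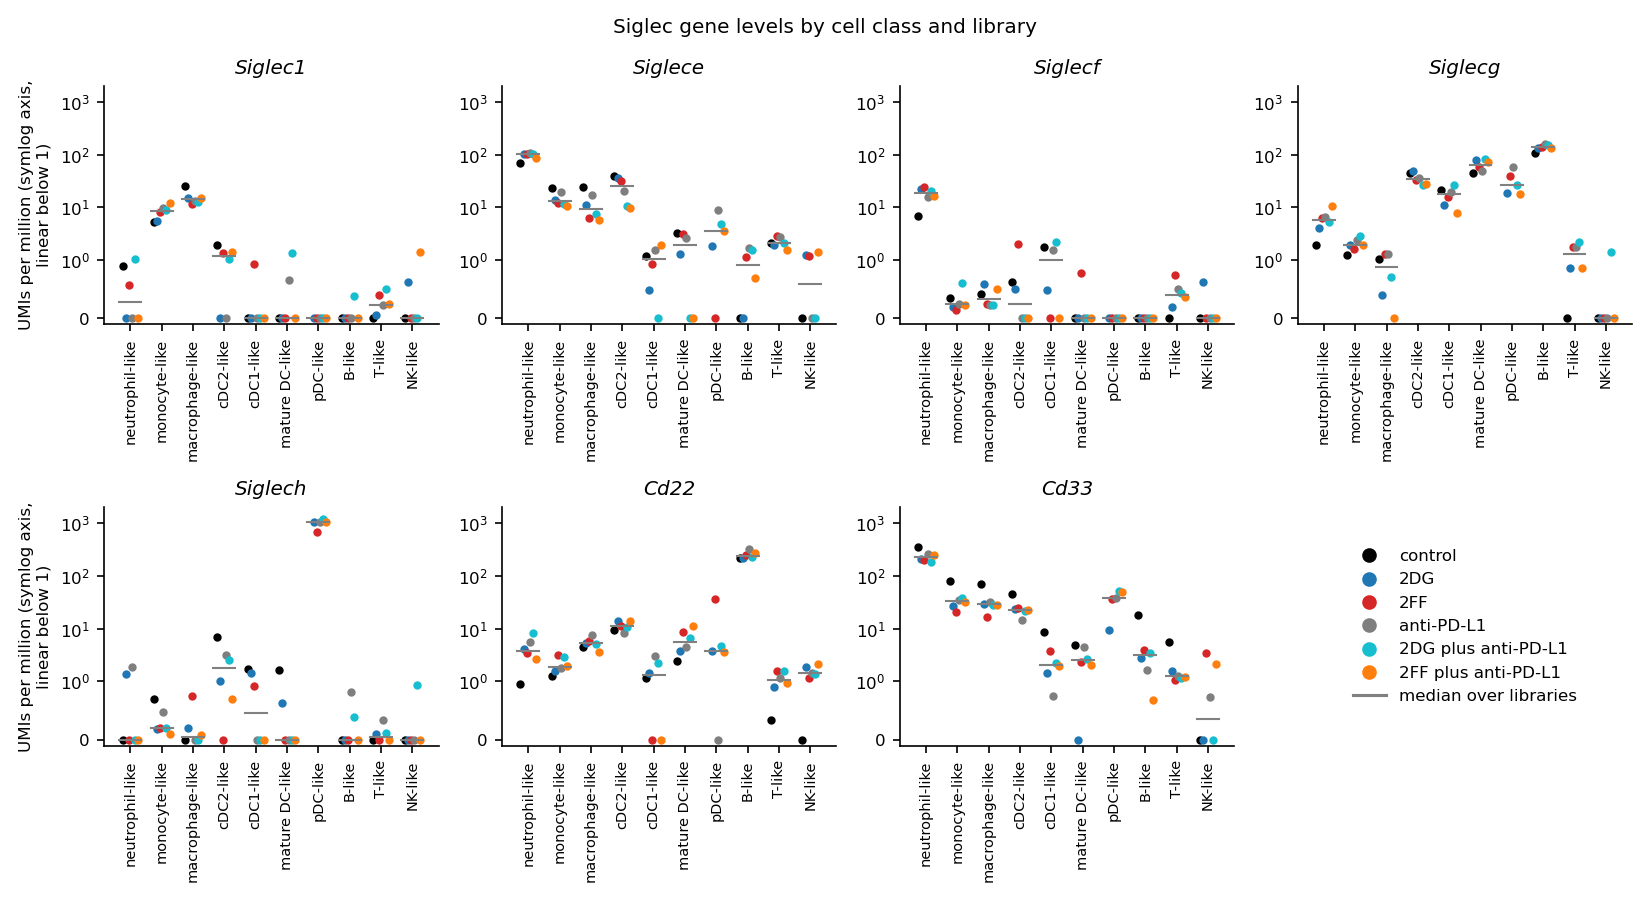
Level of each Siglec gene (CPM, symlog axis that is linear below 1) in 10 cell classes, with a point for each library of at least 20 cells and a grey line at the median over libraries. Siglech stood at 696 to 1184 CPM in pDC-like cells and Cd22 at 223 to 326 CPM in B-like cells, and Cd33, Siglece and Siglecf were highest in neutrophil-like cells.

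The B-cell Siglecs were Cd22 and Siglecg, both inhibitory partners of the B-cell receptor. In B-like cells Cd22 measured 224, 223, 249, 326, 226 and 271 CPM, and B-like cells held 61.2% of all its UMIs. The next class, cDC2-like cells, ranged from 8.40 to 14.1 CPM, and the ranges of these classes did not overlap. Cd22 was 5.09 ± 0.31 (SE) log2 units higher in B-like than in pDC-like cells (edgeR quasi-likelihood test over class sums of all libraries, Benjamini-Hochberg adjusted p = 2.40e-20), where 30.7% of the genes tested differed in either direction. The class pairs for edgeR were fixed from textbook expression and not chosen as neighbours in level. Their p-values thus do not test which class comes next. Here and below, the SE beside an edgeR difference is approximate: it is the difference divided by the square root of its F statistic. The size of the Cd22 difference rested on 1 library: in pDC-like cells Cd22 had 13 UMIs (36.3 CPM) in 2FF and 0 to 2 UMIs in the others. Without the 2FF library the difference was 6.69.

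Siglecg, which also reads sialylated CD24, measured 105, 132, 140, 161, 151 and 136 CPM in B-like cells. Its range there lay above that of mature DC-like cells, which measured 44.4, 78.9, 56.8, 48.4, 83.4 and 71.1 CPM. Its 3046 UMIs were spread over B-like cells (38.4%) and the dendritic classes, with 457 of its UMIs in mature DC-like and 378 in cDC2-like cells. It was 1.78 ± 0.22 (SE) log2 units higher in B-like than in cDC2-like cells (edgeR, adjusted p = 6.80e-10), where 49.2% of genes differed. Its medians in cDC2-like, pDC-like and cDC1-like cells (34.6, 25.9 and 17.7 CPM) came from overlapping ranges.

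Siglech, an endocytic receptor that marks plasmacytoid dendritic cells, was the most restricted member, with 91.3% of its UMIs in 252 pDC-like cells. It measured 1039, 696, 1040, 1184 and 1072 CPM in the 5 libraries with at least 20 such cells. In these libraries it was detected in 152 of 241 pDC-like cells. Control held only 11 pDC-like cells and gave no value. Its lowest library was 2FF, the one whose pDC-like cells also held most Cd22. The next class, cDC2-like cells, measured 6.88 CPM in control and 0 to 3.15 CPM elsewhere. Siglech was higher in pDC-like than in macrophage-like cells by a fitted 11.84 ± 0.34 (SE) log2 units (edgeR, adjusted p = 2.81e-35), where 36.7% of genes differed. Since Siglech was near 0 in macrophage-like cells, the size depends on the count the model adds, and it was 13.76 without the 2FF library. DESeq2 gave 12.35 log2 units with a wider SE of 0.98.

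Siglec1 (sialoadhesin, CD169), a receptor of macrophages that binds sialylated cells and particles, was held by macrophage-like (46.4% of its UMIs) and monocyte-like cells (40.4%). In macrophage-like cells it measured 25.2, 14.9, 11.3, 13.2, 12.6 and 14.9 CPM. In monocyte-like cells it measured 5.34, 5.57, 8.01, 9.70, 8.96 and 11.8 CPM. Control was thus the highest library for the macrophage-like level and the lowest for the monocyte-like level. Across libraries Siglec1 was 0.71 ± 0.21 (SE) log2 units higher in macrophage-like cells (edgeR, adjusted p = 0.00468), where 39.0% of genes differed, and higher in 6 of 6 libraries, although the 2 ranges overlapped. Without the control library the difference was 0.46 (adjusted p = 0.0252). The monocyte-like range lay above that of cDC2-like cells, whose median was 1.19 CPM.

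The 3 remaining members, Siglece, Siglecf and Cd33, peaked in neutrophil-like cells. Siglece, the main inhibitory Siglec of mouse neutrophils and macrophages, measured 69.6, 103, 100, 105, 101 and 86.2 CPM there. It was 3.56 ± 0.19 (SE) log2 units higher than in macrophage-like cells (adjusted p = 2.88e-23) and 2.93 ± 0.18 higher than in monocyte-like cells (adjusted p = 2.60e-20), both by edgeR, where 62.8% and 56.7% of genes differed. Its medians in cDC2-like, monocyte-like and macrophage-like cells were 25.8, 12.8 and 9.29 CPM, and those ranges overlapped.

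Cd33 measured 362, 211, 203, 262, 182 and 256 CPM in neutrophil-like cells, which held 46.2% of its UMIs. Its level in monocyte-like cells was lower by 3.02 log2 units (SE 0.17, edgeR, adjusted p = 2.62e-22). Below neutrophil-like cells, Cd33 had no clear order: medians of 38.4 CPM in pDC-like, 33.7 in monocyte-like, 29.0 in macrophage-like and 22.7 in cDC2-like cells came from overlapping ranges. Between monocyte-like and macrophage-like cells the difference was 0.39 ± 0.16 (SE) log2 units (edgeR, adjusted p = 0.0459). That call was lost with DESeq2, with classes taken from clusters, with doublets removed and without any of 5 single libraries.

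Siglecf, best known from eosinophils and alveolar macrophages, was sparse, and 63.9% of its UMIs lay in neutrophil-like cells. There it measured 6.75, 21.7, 24.2, 15.8, 20.7 and 16.3 CPM, from 114, 32, 42, 17, 20 and 25 UMIs, with control below every treated library. It was 5.85 ± 0.37 (SE) log2 units higher in neutrophil-like than in macrophage-like cells (edgeR, adjusted p = 7.11e-19). Its median in macrophage-like cells was only 0.334 CPM.

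Adjacent classes in the order of a member's medians were also compared by an exact two-sided sign-flip test over libraries. None of 63 such pairs passed, since the smallest p that 6 libraries can give is 0.03125 and the smallest adjusted p was 0.197. Ranges stood apart for the leading class or classes of each member, as given above, and for Cd33 in neutrophil-like against pDC-like cells. Single cells often held more than 1 member: 2 or more were detected in 36.3% of B-like, 28.6% of pDC-like, 22.2% of neutrophil-like and 19.6% of cDC2-like cells, against 8.99% of macrophage-like and 6.18% of monocyte-like cells. These shares follow depth as well as level, since median UMIs per cell differed between classes, and were not compared by a test.

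Against control, Cd33 was lower in the myeloid classes of every treated library. With 1 library for each treatment there is no test between treatments, so a difference past 2-fold on the log2(CPM + 5) scale is counted, and intervals cover counting error only. Over all members and classes with at least 50 UMIs in the pair, 177 ratios were formed, of which 3 were higher (background over all genes 2.08%) and 18 were lower (background 1.95%). Of these, 95 compared a treated library with control and gave 3 higher and 15 lower ratios, beside 2.94% and 2.69% of all genes. The 82 ratios of a combination over a single agent gave 0 higher and 3 lower, beside 0.988% and 1.01%. All ratios over control share the 1 control library.

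**Figure D2:**
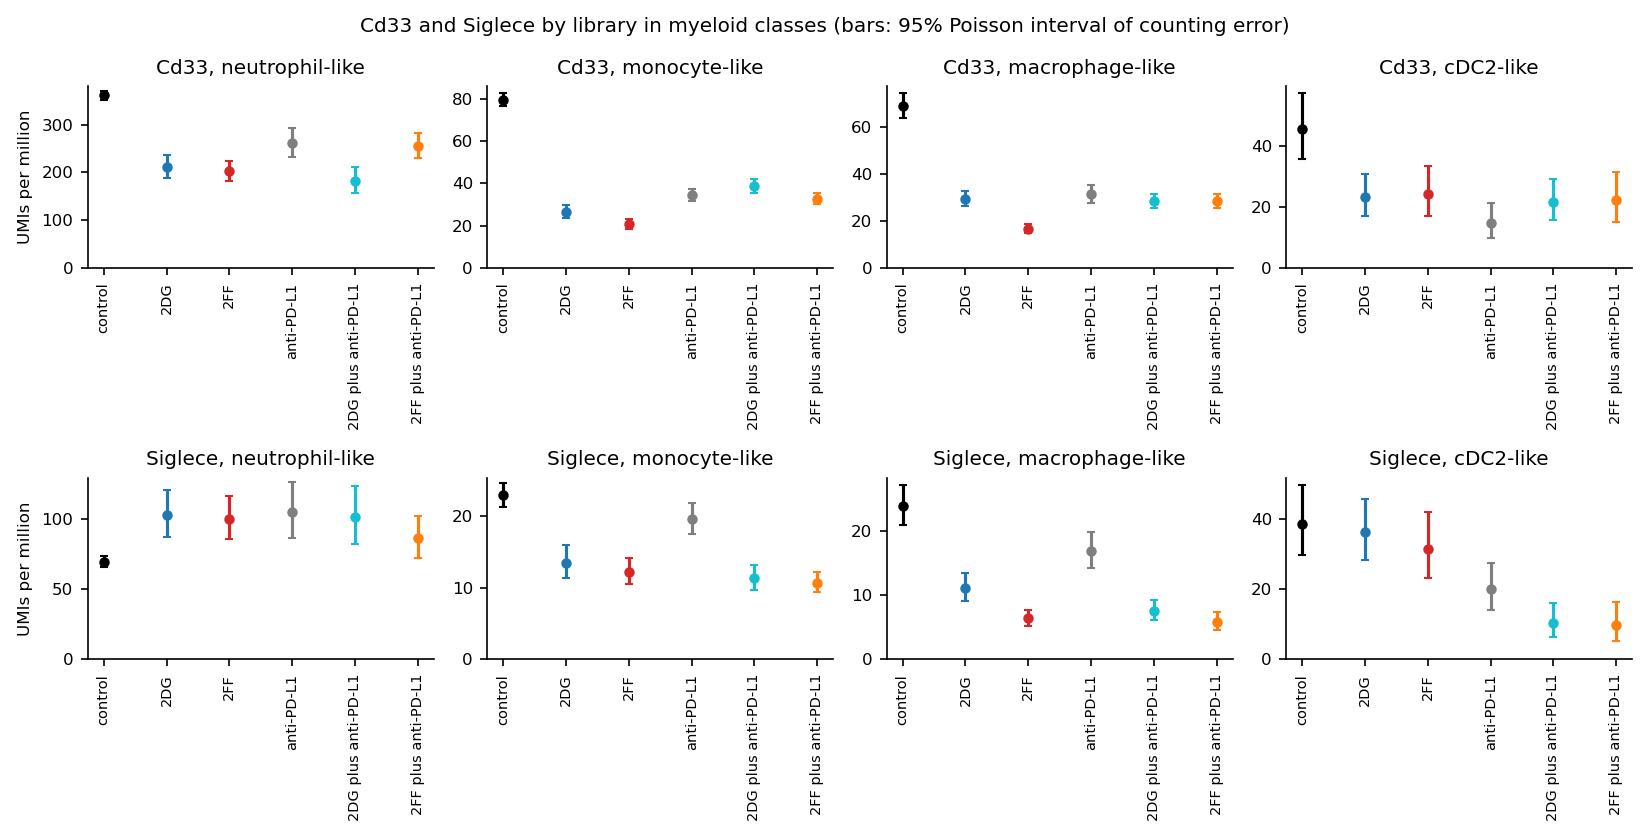
Levels of Cd33 and Siglece (CPM, linear axes from 0) in 4 myeloid classes for each library, with 95% Poisson intervals of counting error. Cd33 was highest in control in all 4 classes, and Siglece was highest in control in monocyte-like, macrophage-like and cDC2-like cells but lowest in control in neutrophil-like cells.

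In monocyte-like cells Cd33 measured 79.8, 26.6, 20.7, 34.6, 38.7 and 32.8 CPM. The log2 ratios over control were -1.42 for 2DG, -1.72 for 2FF, -1.10 for anti-PD-L1 and -1.16 for 2FF plus anti-PD-L1, where 2.76%, 2.47%, 1.85% and 1.51% of all genes were lower by more than 2-fold, and the ratio of 2DG plus anti-PD-L1 did not pass 2-fold. In macrophage-like cells Cd33 measured 69.2, 29.5, 16.6, 31.5, 28.3 and 28.5 CPM. All 5 treated libraries passed there, with log2 ratios of -1.11, -1.78, -1.02, -1.15 and -1.15 beside 1.55%, 2.57%, 1.48%, 3.13% and 1.97% of genes. In both classes 2FF was the lowest library and control the only high one.

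In cDC2-like cells Cd33 measured 45.7, 23.2, 24.2, 14.7, 21.7 and 22.2 CPM, and only anti-PD-L1 passed 2-fold (-1.36, beside 3.69% of genes). In neutrophil-like cells no ratio of Cd33 passed, with 362 CPM in control and 182 to 262 CPM in treated libraries.

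The summed RNA of neutrophil markers moved with the libraries in the same direction. Summed over 7 neutrophil markers, monocyte-like cells held 1538 CPM in control and 296 to 565 in treated libraries, macrophage-like cells 1120 and 202 to 268, and T-like cells 911 and 175 to 255. The markers did not move alike. In monocyte-like cells Csf3r moved the other way, with 58.0 CPM in control and 105 to 113 CPM in treated libraries. In macrophage-like cells Csf3r measured 57.6 CPM in control and 50.3 to 64.1 CPM in treated libraries. In T-like cells S100a8 measured 270 CPM in control and 7.15 to 27.7 in treated libraries, but Il1r2 234 and 131 to 216. In cDC2-like cells of control, Il1r2 alone made 1375 of 1522 CPM, so the scaled level of that class below rests mostly on Il1r2. Cd33 in T-like cells, which should lack it, was 5.47 CPM in control and 1.05 to 1.57 in treated libraries. Scaled by the ratio of Cd33 to these markers in neutrophil-like cells of the same library, the markers would correspond in control to 6.14 CPM of Cd33 in T-like cells (5.47 measured), 2.15 in B-like cells (17.9 measured, from 7 UMIs), 10.4 in monocyte-like cells (79.8 measured), 7.54 in macrophage-like cells (69.2 measured) and 10.3 in cDC2-like cells (45.7 measured). The measured level thus lay near the scaled one in T-like cells and above it in the other 4 classes, B-like cells included, which should also lack Cd33. The part of neutrophil RNA in the differences between libraries was not tested.

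Siglece was also lower than control in macrophage-like cells, where it measured 23.8, 11.1, 6.37, 16.8, 7.49 and 5.81 CPM. The log2 ratio was -1.34 for 2FF, -1.21 for 2DG plus anti-PD-L1 and -1.41 for 2FF plus anti-PD-L1, beside the shares of genes already given for those macrophage-like comparisons. 2FF plus anti-PD-L1 was also below anti-PD-L1 alone (-1.02, where 0.265% of genes were lower by more than 2-fold). In monocyte-like cells Siglece measured 22.9, 13.5, 12.2, 19.5, 11.3 and 10.7 CPM, and no ratio passed 2-fold. In both classes anti-PD-L1 alone was the treated library closest to control.

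In cDC2-like cells Siglece measured 38.8, 36.3, 31.6, 19.95, 10.3 and 9.72 CPM, so the single inhibitors lay near control and both combinations were lowest. The combinations were below control by log2 ratios of -1.51 with 2DG and -1.57 with 2FF, beside 6.02% and 6.3% of genes. They were also below the inhibitor alone, by -1.43 for 2DG (3.27% of genes) and -1.32 for 2FF (1.51% of genes). Anti-PD-L1 alone lay between, with a log2 ratio over control of -0.81 that did not pass 2-fold. Neither combination passed 2-fold against anti-PD-L1 alone. In no other class was a combination lower than its inhibitor alone by more than 2-fold for any member. The main cluster of cDC2-like cells was the same in all libraries (cluster 15, 84.9 to 95.5% of the class).

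Siglecf in neutrophil-like cells gave the 3 higher ratios, at 1.19 for 2DG, 1.31 for 2FF and 1.13 for 2DG plus anti-PD-L1. In those comparisons 6.61%, 7.86% and 8.0% of all genes were higher by more than 2-fold. The remaining members, Siglec1, Siglecg, Siglech and Cd22, had no ratio past 2-fold in any class with enough UMIs.

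Since the libraries filled different clusters of a class, treated libraries were set against control within single clusters, an alternative added after the data were seen. Clusters named neutrophil, monocyte, macrophage or cDC2 by their mean marker scores were used. Cluster 21, which took no class, and the other dendritic clusters were left out. Every pair of such a named cluster and a treated library with at least 20 cells in both libraries was counted. No minimum of UMIs was set, since such a minimum lets in clusters where only control is high. All cells of a cluster were summed, and the named class made up 43.9% of cluster 4, 44.8% of cluster 15 and 50.2% of cluster 13. Cd33 was below control in 72 of 72 pairs over 15 clusters, with a median log2 ratio of -1.08 and 45 past 2-fold. Siglece was below control in 62 of 72 pairs, with a median of -0.59 and 21 past 2-fold. Siglece did not move one way in every cluster: in cluster 11, of monocyte-like cells, 4 of 5 libraries were above control, and in cluster 19, of macrophage-like cells, 2 of 5 were. Over all genes with at least 50 UMIs in a pair, 49.0% of ratios lay below 0 and 3.45% were lower by more than 2-fold. This background has a minimum of UMIs that the counts of Cd33 and Siglece lack. Its share was also uneven: 1551 of 8007 genes were lower by more than 2-fold for 2FF in cluster 3, and 55 of 8167 for 2FF plus anti-PD-L1 in cluster 19. Pairs of the same cluster share its control value and are not independent.

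**Figure D3:**
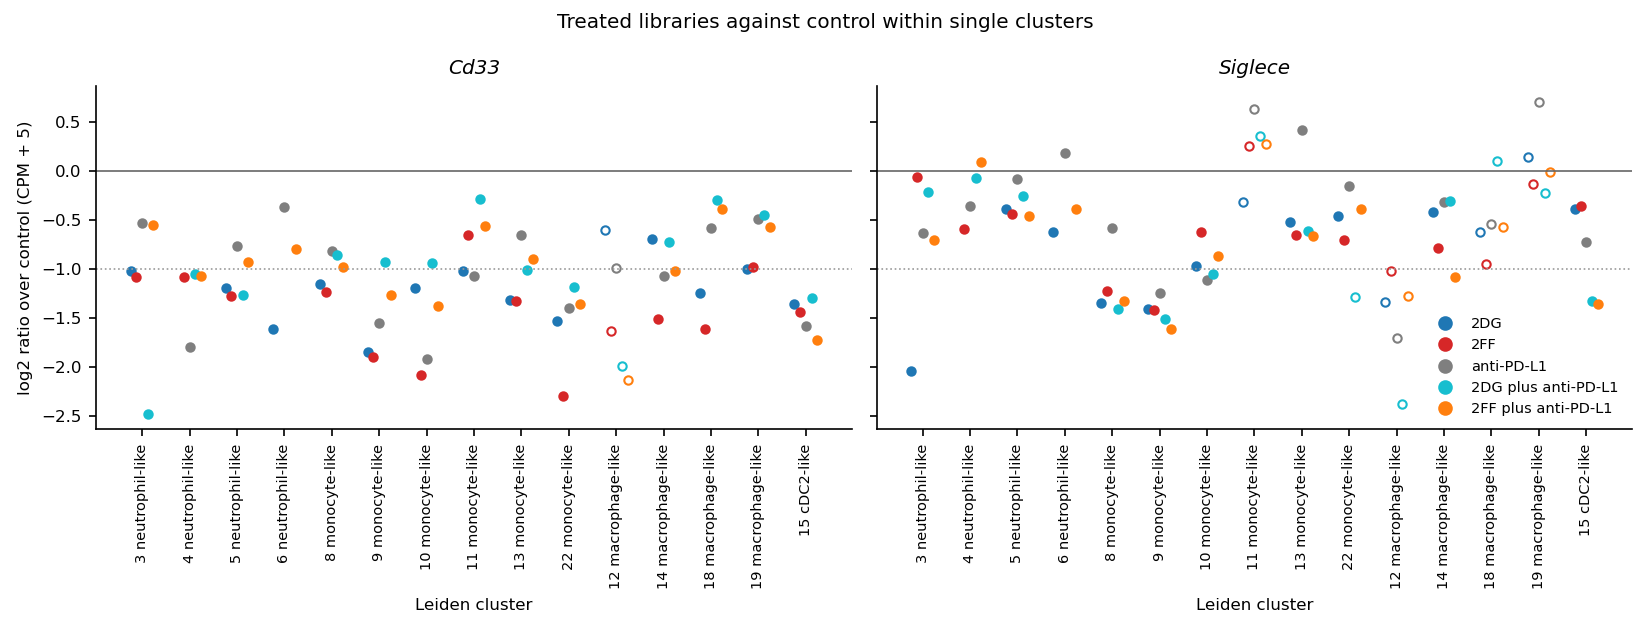
Log2 ratio over control (CPM + 5) of Cd33 and Siglece within single Leiden clusters, with a point for each treated library, a solid line at 0 and a dotted line at -1. Open points have under 50 UMIs in the pair. All 72 points of Cd33 and 62 of 72 points of Siglece lie below 0.

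Cluster 5, which held most treated neutrophil-like cells, measured 572 CPM of Cd33 in control and 234 to 334 CPM in treated libraries. Cluster 9, of monocyte-like cells, measured 116 CPM in control and 27.4 to 58.2 CPM in treated libraries. For Siglece in neutrophil-like cells the cluster view went the other way from the class: control had the lowest class level (69.6 CPM) but was the higher library in 15 of 17 cluster pairs. Control's Siglece was 163 CPM in cluster 5 and 41.6 CPM in cluster 3, where most of its neutrophil-like cells lay. Siglecf was above control in 13 of 17 pairs over 4 neutrophil-like clusters, with a median of 0.70 and 3 past 2-fold, although 7 of these pairs had under 50 UMIs.

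Members were also compared between states of the cell inside a class, and no difference passed its test after adjustment. Cells of a class were split at each library's median of a summed gene list that holds no Siglec gene, and the member's level above and at or below it was compared over the 6 libraries by an exact two-sided sign-flip test. Of 28 such tests, 9 reached the smallest p that 6 libraries can give (0.03125), and none passed after adjustment (smallest adjusted p 0.0972). Passing would have needed far more than 9 of the 28 tests at that p, so not passing says little about whether levels differed. The share of all genes that moved one way in 6 of 6 libraries is not given here, so the count of 9 has no background.

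**Figure D4:**
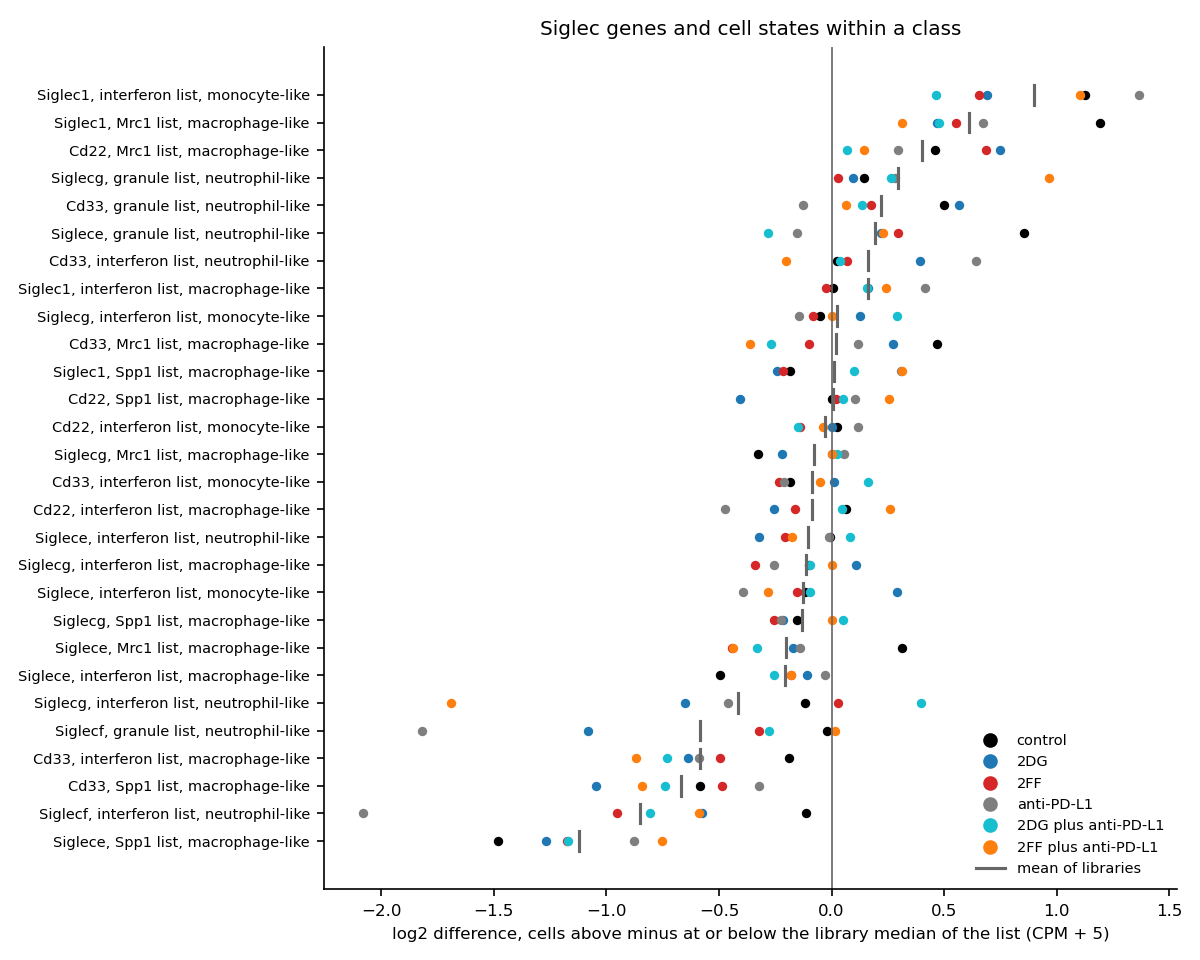
Difference in level (log2 of CPM + 5) between cells above and cells at or below the median of a gene list, with a point for each library and a grey bar at the mean. Siglec1 in monocyte-like cells split by interferon genes lies right of 0 in all 6 libraries (mean 0.90), and Siglece in macrophage-like cells split by Spp1-list genes lies left of 0 in all 6 (mean -1.12).

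The interferon list holds interferon-induced genes such as Isg15, Ifit1 and Rsad2, of which 14 were counted. In monocyte-like cells above its median Siglec1 measured 9.39, 8.25, 11.1, 16.4, 11.3 and 18.4 CPM, against 1.59, 3.20, 5.22, 3.30, 6.81 and 5.91 CPM in the rest. The difference was 0.90 ± 0.35 log2 units (SD, n = 6 libraries), higher in 6 of 6 (exact p = 0.03125, adjusted p = 0.0972). Siglec1 is itself known as an interferon-induced gene. The list's summed level in monocyte-like cells was lowest in control, at 763 CPM, and highest in 2FF plus anti-PD-L1, at 2883 CPM, which were also the lowest and the highest library for Siglec1 there. In macrophage-like cells the list was again lowest in control, at 534 CPM against 715 to 1245 CPM, but control was the highest library for Siglec1.

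In macrophage-like cells Siglec1 was higher in cells above the median of the Mrc1 list, a set of tissue-macrophage genes such as Mrc1, Folr2 and Cd163. It measured 36.2, 18.0, 14.2, 17.4, 15.4 and 17.1 CPM above and 13.05, 11.6, 8.06, 9.07, 9.65 and 12.8 CPM below, a difference of 0.61 ± 0.31 (SD), higher in 6 of 6. Cd22 was also higher above the median of that list, by 0.40 ± 0.28 (SD) in 6 of 6 libraries, with medians over libraries of 6.85 CPM above and 3.18 CPM below (for both genes exact p = 0.03125, adjusted p = 0.0972).

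Siglece and Cd33 ran against the Spp1 list, which holds genes of lipid-laden and hypoxic macrophages such as Spp1, Gpnmb and Arg1. Siglece measured 9.55, 4.49, 1.98, 10.1, 2.59 and 2.90 CPM above the median and 35.6, 17.8, 10.7, 22.7, 12.1 and 8.33 CPM below it. The mean difference of Siglece was -1.12 ± 0.26 (SD) and that of Cd33 was -0.67 ± 0.26 (SD), each lower in 6 of 6 libraries (exact p = 0.03125, adjusted p = 0.0972). In control, cells above the median were also shallower, with medians of 9423 against 14403 UMIs. They were shallower too in anti-PD-L1 (8432 against 9740.5), 2DG plus anti-PD-L1 (9442 against 10235.5) and 2FF plus anti-PD-L1 (8878 against 10436). Depths above and below were 9437.5 and 9435 UMIs in 2DG, and 10168 and 9718.5 UMIs in 2FF. The part of depth in these differences was not tested.

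Split by the interferon list, the mean difference in macrophage-like cells was -0.59 for Cd33 and -0.21 for Siglece. In neutrophil-like cells it was -0.85 ± 0.67 (SD) for Siglecf. Each was lower in 6 of 6 libraries and did not pass (exact p = 0.03125, adjusted p = 0.0972). Siglecf had only 1 UMI above the median in anti-PD-L1, against 16 below it. Along the granule list of neutrophil precursors (such as Camp, Ngp and Ltf), Siglecg was higher by 0.30 ± 0.34 (SD) in 6 of 6 libraries, from only 77 UMIs in all (exact p = 0.03125, adjusted p = 0.0972).

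Genes that serve the receptors were described by lists. Of 7 signal partners, 6 were higher and 1 lower in neutrophil-like than in macrophage-like cells (edgeR, adjusted p under 0.05), beside 29.7% and 33.2% of all genes. They included Tyrobp (1.14 log2 units, adjusted p = 1.99e-12), the adaptor named above, and Syk (1.83, adjusted p = 2.52e-19), the kinase it recruits, while Ptpn11 was lower. Of 6 glycoprotein ligands, 5 were higher and 1 lower, led by Cd24a (5.54, adjusted p = 3.37e-21), which encodes a ligand of Siglecg. Of 11 genes of sialic acid supply and removal, 3 were higher and 5 lower.

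Against control in the myeloid classes, 7 of 139 ratios of signal partners passed 2-fold upwards and 0 downwards, among them Ptpn6 in neutrophil-like cells of 4 libraries. Of 132 ratios of sialic acid genes, 0 were higher and 2 lower. Of 120 ratios of ligand genes, 17 were higher and 16 lower. The lower ones were all of Cd24a or Spn, most of them Cd24a, and the higher ones of Spn, Cd52, Lgals3bp or Ptprc. A gene was counted again in each class and library, against the same control. Over all genes in these 4 classes, 3.69% of ratios over control were higher by more than 2-fold and 3.05% lower, and in neutrophil-like cells, where the Ptpn6 ratios lie, 6.3% to 8.0% were higher in those 4 libraries. Cd24a in monocyte-like cells measured 150 CPM in control and 12.1 to 30.7 CPM in treated libraries. Cd24a was also expressed by neutrophil-like cells (348 to 447 CPM). In control the summed neutrophil markers were 1538 CPM in monocyte-like and 53650 CPM in neutrophil-like cells. The part of neutrophil RNA in the Cd24a differences was not tested. Other Siglec genes were scarce, with a median of 6.93 CPM for Mag in macrophage-like cells and 0 for Siglec15 in every class.

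The genes most alike in pattern to each member were found over 60 class sums, which share libraries, by Pearson's r of log2(CPM + 5) among 12422 genes with no gating marker. Siglech was closest to Grm8 (0.988) and Pdzd4 (0.973), and Siglecf to Ceacam10 (0.951) and Gm34643 (0.950). Cd33 was closest to Trem1 (0.937), a receptor that amplifies inflammation in neutrophils, and Sirpb1b (0.931). Cd22 was closest to Gm31243 (0.937) and Fcer2a (0.931), the low-affinity IgE receptor, and Siglecg to Rab30 (0.892) and H2-DMb2 (0.883). Siglec1 was closest to Rnase4 (0.927) and Ang (0.922), and Siglece to Ggt5 (0.909) and E230013L22Rik (0.900). Between members, the highest value was 0.887 for Siglece and Cd33, followed by 0.768 for Siglece and Siglecf and 0.716 for Siglecg and Cd22.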

How the data were processed

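Single cells of 6 libraries were measured with 10x Chromium Next GEM single cell 3' v3.1 chemistry. The authors deposited filtered matrices of UMI counts per gene and cell, unnormalized, made with Cell Ranger (version 7.0.0 in the matrix header and the study's methods, 3.1.0 in the submitters' processing notes) on mm10. From these counts, cells with at least 250 genes and at most 5% mitochondrial UMIs were kept and assigned to classes by marker scores per cell (score of at least 0.2, margin of at least 0.05, at least 3 markers). Clusters were Leiden clusters (scanpy 1.11.5, resolution 1, 30 components), with the Siglec genes not left out. Simulated doublets marked 3887 cells, which were kept except in an alternative. UMIs were summed per library and class of at least 20 cells. Class pairs were tested by edgeR 4.0.16 (R 4.3.3) with the library as a block, over 17312 genes with at least 50 UMIs, at an adjusted p below 0.05. The classes were fitted together, so the p-values rest on the spread left after class and library effects, pooled over the class sums. Sums of different classes from the same mouse count as separate units in that spread. The libraries came from 6 single mice of different treatments, so these p-values do not measure the spread between mice of a treatment. The SE given with edgeR differences was derived from the F statistic and was not estimated by the model. Ratios between libraries used log2(CPM + 5) and at least 50 UMIs. Poisson and Clopper-Pearson 95% intervals, and the limit of 3 counts behind a count of 0, cover counting error only. Permutation tests used scipy 1.17.1, and promoter windows were aligned with Biopython 1.88. DESeq2 1.42.0, other pseudocounts, filters, centring, thinning to 1000 UMIs, removal of doublets, classes from clusters and each library left out were alternatives. The ratio and edgeR steps were tested on simulated data.

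All 7 members were named by rule, with the 3 genes most alike in pattern and genes of the stated lists. Members and lists were chosen with earlier results of these data known. Barcodes carry no further sample information, and free RNA was not removed.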

Additional observations from a re-analysis of the deposited data

Results flagged for a closer look

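The change that came with anti-PD-L1 had opposite signs at different inhibitors for 6 pairs of a member and a class. These pairs were picked because their 95% counting intervals lay on opposite sides of 0, so the intervals are no added support. The share of all genes that this rule would pick is not given here. With 1 library for each treatment these differences were not tested, and each value is a log2 ratio of CPM + 5 between 2 libraries. For Cd33, adding anti-PD-L1 to no inhibitor gave -1.02 in macrophage-like, -1.10 in monocyte-like and -0.46 in neutrophil-like cells. Adding it to 2FF gave 0.63, 0.55 and 0.33 in the same classes. Adding it to 2DG gave 0.47 in monocyte-like cells, but -0.05 in macrophage-like and -0.21 in neutrophil-like cells, where the counting intervals included 0. For Siglec1 in macrophage-like cells the values were -0.73 with no inhibitor, 0.29 with 2FF and -0.18 with 2DG, the last with an interval that included 0. For Cd22, the B-cell receptor partner that is low in myeloid cells, they were 0.41 with no inhibitor and -0.35 with 2FF in macrophage-like cells, and 0.27 with 2DG and -0.22 with 2FF in monocyte-like cells. Over the libraries Cd22 stood at only 3.54 to 7.55 CPM in macrophage-like and 1.27 to 3.15 CPM in monocyte-like cells. For Cd33 and Siglec1 the ratio with no inhibitor is taken over control, the library in which both stood highest in macrophage-like cells.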

How the results depend on the processing

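The class tests were already paired by library. No paired analysis was possible because each treatment has 1 library, as far as comparisons between treatments go. Of the 9 class pairs, 8 kept their direction and their call under every alternative run. Cd33 in monocyte-like over macrophage-like cells kept its direction but lost its call with DESeq2 (0.31, adjusted p = 0.396), with classes from clusters (0.31, adjusted p = 0.130), with doublets removed (0.36, adjusted p = 0.0974) and with at least 50 cells for each class and library (0.39, adjusted p = 0.0527). Leaving out 1 library at a time gave 0.34 to 0.47, with the call held only without 2DG. The 3 ratios past 2-fold higher became 6 with 1 CPM added, 0 with 20 CPM added, 6 with at least 20 UMIs in the pair, 1 when centred on the median of all genes and 1 with cells thinned to 1000 UMIs. The 18 lower ratios became 3 with 20 CPM added and 10 after thinning. Without the comparisons that use control, 0 higher and 3 lower remained to be counted. With classes from clusters the median was 86.8 CPM for Siglece in neutrophil-like cells and 1545 CPM for Siglech in pDC-like cells. The clustering did not leave out the Siglec genes, and Siglech was the first of the leading genes of cluster 17. That alternative is thus not independent of the members. The sign of 4 of the 28 splits turned, each with a mean near 0. Cd22 by the Spp1 list in macrophage-like cells was -0.12 with the middle cells left out. Leaving out 1 library at a time gave values of -0.0463 to 0.0865 for Cd22 by the Spp1 list, -0.0482 to 0.0630 for Siglec1 by that list, -0.0675 to 0.0980 for Cd33 by the Mrc1 list, all in macrophage-like cells, and -0.0309 to 0.0564 for Siglecg by the interferon list in monocyte-like cells. Causes were not tested. Depth limits Siglecf most, with 17 to 42 UMIs in each treated library's neutrophil-like cells.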
